A study of Mus musculus with 8 samples.

Results

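The claudin genes Cldn1, Cldn3, Cldn4, Cldn6, Cldn7, Cldn9, Cldn10, Cldn11 and Cldn12 were followed by RNA sequencing in mouse embryos with and without the zinc-finger transcription factor gene Prdm12. They are 9 of the 38355 genes counted, taken by symbol. Cldn5, the claudin of endothelium, was left out of the set. The set was selected on earlier results of the KO and WT comparison, in which Cldn12 was called, so the fold changes between genotypes of these genes are a description and not a test of them. The tissue was thoracic dorsal root ganglia, which house the cell bodies of sensory neurons, dissected with the attached spinal cord at embryonic day E11.5 from the C57Bl6 strain. There were 4 libraries labelled Prdm12-/- (KO) and 4 labelled wild type (WT). The series text speaks of triplicates, the labels do not say whether a library is 1 embryo or a pool, and they do not give the deleted part of Prdm12 or its allele. The p-values therefore weigh genotype against the spread between these libraries, which may be technical.

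Claudins are tetraspan membrane proteins that polymerise into the strands of tight junctions, where they seal the space between cells or form selective pores in it. Epithelia carry mixtures of claudins, and the blood vessels of the nervous system rely on Cldn5. In the adult nervous system Cldn11 forms the junction strands between wraps of oligodendrocyte myelin, and Cldn1 belongs to the barrier of the perineurium and of the epidermis. Cldn12 is an atypical family member whose tail lacks the motif by which most claudins bind PDZ-domain scaffolds, and it is best known for paracellular calcium transport in the intestine.

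Library totals were 27567399, 24690266, 26532920 and 23088908 counts in KO replicates 1 to 4 and 67782435, 27318883, 25490087 and 28500792 counts in WT replicates 1 to 4. At the smallest total, 1 CPM (counts divided by the library's size in units of 1e6) is 23.1 counts. Prdm12 stood between 0.962 and 1.55 CPM in the KO libraries and between 22.2 and 39.6 CPM in the WT libraries. The defining genes of sensory neurons were present, and 12 of 13 listed sensory markers were found with none at 0 in all 8 libraries. The libraries KO replicate 4 and WT replicate 1 carried the most RNA of surface epithelium markers, a list of 15 keratin, junction and protease genes such as Cdh1 and Krt8. Their summed level was 97.8 CPM in KO replicate 4 and 115 CPM in WT replicate 1, while the other libraries lay between 59.2 and 80.9 CPM in KO and between 63.1 and 85.2 CPM in WT. None of the 15 was at 0 in all 8 libraries.

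Cldn12 was lower in every KO library than in any WT library. It lies at mm10 chr5:5489537-5514958 on the minus strand. Cldn12 had 51.5, 49.0, 50.9 and 49.3 CPM in KO replicates 1 to 4, against 62.4, 65.6, 64.1 and 66.0 CPM in WT replicates 1 to 4. The groups did not overlap, and the step between them was wider than the spread inside either. The means were 50.2 ± 1.21 CPM in KO and 64.5 ± 1.61 CPM in WT (SD, n = 4 each). The fitted level fell by 0.36 on the log2 scale (SE 0.04), which is 22.2% lower in KO. In edgeR's quasi-likelihood fit over 16068 genes this had an adjusted p of 0.00462 after Benjamini-Hochberg adjustment, the value by which Cldn12 was chosen.

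**Figure D1:**
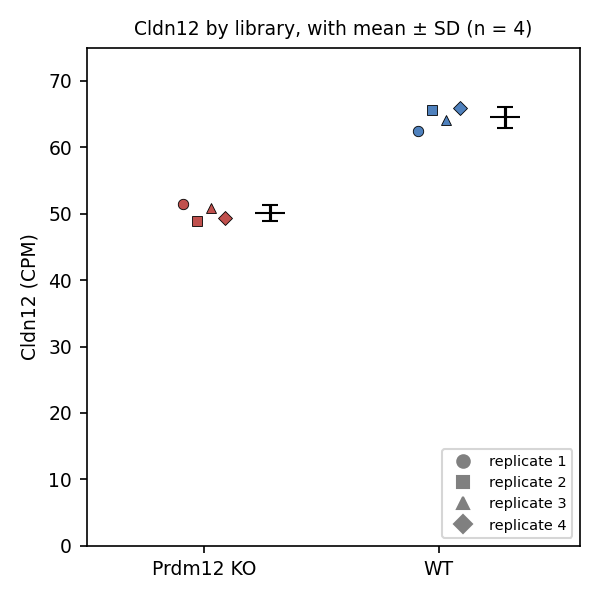
Cldn12 level in CPM (vertical axis, from 0) in each of 4 Prdm12 KO libraries (left) and 4 WT libraries (right), with symbols for replicates and the mean ± SD beside them. The KO libraries lie between 49.0 and 51.5 CPM and the WT libraries between 62.4 and 66.0 CPM.

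The Cldn12 values rest on 1128 to 1425 counts per KO library and 1636 to 4204 counts per WT library. Their coefficient of variation was 2.41% in KO and 2.49% in WT. Counting error alone gives 2.80% in KO and 2.21% in WT, so the libraries of a genotype differed about as much as counting allows. A choice by p-value favours genes with a low spread among these libraries. Over all genes tested, the biological coefficient of variation of the edgeR fit was 9.57%. Cldn12 was the 1 claudin called among the 8 that passed the filter on low counts, beside a background of 0.243% of all genes tested called lower in KO. It was also the 1 claudin of the 8 whose genotypes did not overlap, where 2.45% of all genes tested had every KO library below every WT library. No claudin was called higher, and 0.056% of all genes tested were. Since the choice of Cldn12 used this contrast, nothing is read from these counts.

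Leaving out any single library kept the edgeR adjusted p of Cldn12 between 0.0013 and 0.0401. These fits reuse the libraries on which Cldn12 was chosen, so they describe its dependence on single libraries and are no further test. Of the 12 skeletal muscle markers and the 18 mesenchyme and sclerotome markers, 0 passed the test, although the fitted log2 fold change of each was above 0, with medians of 0.31 and 0.15. The 12 muscle markers, none at 0, summed to between 975 and 1440 CPM in KO and between 885 and 1050 CPM in WT. The 18 mesenchyme and sclerotome markers, none at 0, summed to between 5260 and 5990 CPM in KO and between 4370 and 5530 CPM in WT, and both ranges overlapped between the genotypes. With the mean log2 level of these genes as a covariate the fall of Cldn12 was −0.34 on the log2 scale (SE 0.064) and its edgeR adjusted p was 0.519. Of the 12 tested sensory neuron markers, 11 were lower in KO and 1 was higher, with a median log2 fold change of −0.28. Of these 12, 2 were called lower, where 0.243% of all genes tested were. The summed sensory neuron markers lay between 456 and 531 CPM in KO and between 474 and 659 CPM in WT, with WT replicate 1 inside the KO range. The part of these markers in the Cldn12 result was not tested. In these bulk samples, fewer cells of a type and less RNA per cell cannot be told apart.

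None of the 4 nearest tested genes around Cldn12 passed the test. Gtpbp10, which encodes a mitochondrial GTP-binding protein and lies 22496 bp away on the same strand, averaged 13.1 ± 0.697 CPM in KO and 14.6 ± 0.757 CPM in WT (SD, n = 4 each). Its log2 fold change was −0.16 (edgeR adjusted p = 0.743). Cdk14, a cyclin-dependent kinase gene on the other side, had a log2 fold change of −0.064 (edgeR adjusted p = 0.869). Of the next tested genes outward, the Wnt receptor gene Fzd1, 731502 bp away, had a log2 fold change of 0.06 (edgeR adjusted p = 0.959). The predicted gene Gm8773, 58841 bp away, had one of −0.33 (SE 0.16, edgeR adjusted p = 0.813), a fitted value near that of Cldn12 but with a larger SE.

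The genes most like Cldn12 across the 8 libraries, by Pearson r of log2 CPM, were Slc17a7, Prdm12, Jag1, Cadm1 and Ass1, at r between 0.98 and 0.991. Slc17a7 encodes the vesicular glutamate transporter VGLUT1, Jag1 a Notch ligand, Cadm1 an adhesion molecule of the immunoglobulin family and Ass1 an enzyme of arginine synthesis. All of them were lower in KO, so the likeness mostly restates the genotype difference. Ass1 (mm10 chr2:31470207-31520672) lies near Prdm12 (mm10 chr2:31640037-31655795). Whether the altered Prdm12 allele itself changes the level of Ass1 was not tested. With each genotype centred on its own mean, r with Cldn12 was 0.84 for Slc17a7, 0.59 for Cadm1, 0.44 for Ass1, 0.42 for Jag1 and 0.39 for Prdm12. The genes were picked by r over the same libraries, which includes the deviations inside each genotype. The spread of Cldn12 inside a genotype was also near counting error, so nothing is read from the centred values or from the order of replicates. Slc17a7 stood at 1.99, 1.72, 2.06 and 1.71 CPM in KO replicates 1 to 4, against 3.45, 3.76, 3.25 and 3.98 CPM in WT replicates 1 to 4. Among the KO libraries both genes were lower in replicates 2 and 4 than in replicates 1 and 3.

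Cldn12 was also the most abundant of the 9 claudins per transcript length. Levels between genes are given as CPM per kb of annotated exon. Cldn12 had a level of 11.9 ± 0.286 in KO and 15.3 ± 0.380 in WT (SD, n = 4 each). Cldn11 came next in both genotypes, at 6.64 ± 0.799 in KO and 6.27 ± 1.27 in WT on the same scale, with no overlap between the ranges of Cldn12 and Cldn11 in either genotype. Cldn6, Cldn4, Cldn1 and Cldn3 followed in that order in both genotypes. Their means lay between 0.677 and 1.91 in KO and between 0.633 and 1.79 in WT, and each overlapped the next in range. Compared inside each library, Cldn1 was above Cldn3 in all 4 libraries of each genotype. The steps from Cldn6 to Cldn4 and from Cldn4 to Cldn1 did not hold in every library. Cldn7 and Cldn9 overlapped as well and changed places between the genotypes. Cldn10 had the lowest mean, at 0.173 ± 0.0811 in KO and 0.111 ± 0.0528 in WT (SD, n = 4 each), below the range of its neighbour in each genotype. In KO its range of 0.0844 to 0.246 still overlapped that of Cldn7, 0.164 to 0.875. The endothelial claudin Cldn5 stood at 22.4 ± 1.19 in KO and 22.1 ± 2.22 in WT, above Cldn12 on this scale. Per kb of coding sequence this order turned, with Cldn12 at 68.5 ± 1.65 in KO and 88.2 ± 2.19 in WT, and Cldn5 at 48.5 ± 2.58 in KO and 47.8 ± 4.81 in WT (SD, n = 4 each). Cldn12 and Cldn11 remained the first and second of the 9 per coding kb, and Cldn1, at 8.86 ± 0.636 in KO and 9.32 ± 1.90 in WT, then had a higher mean than Cldn6 and Cldn4.

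**Figure D2:**
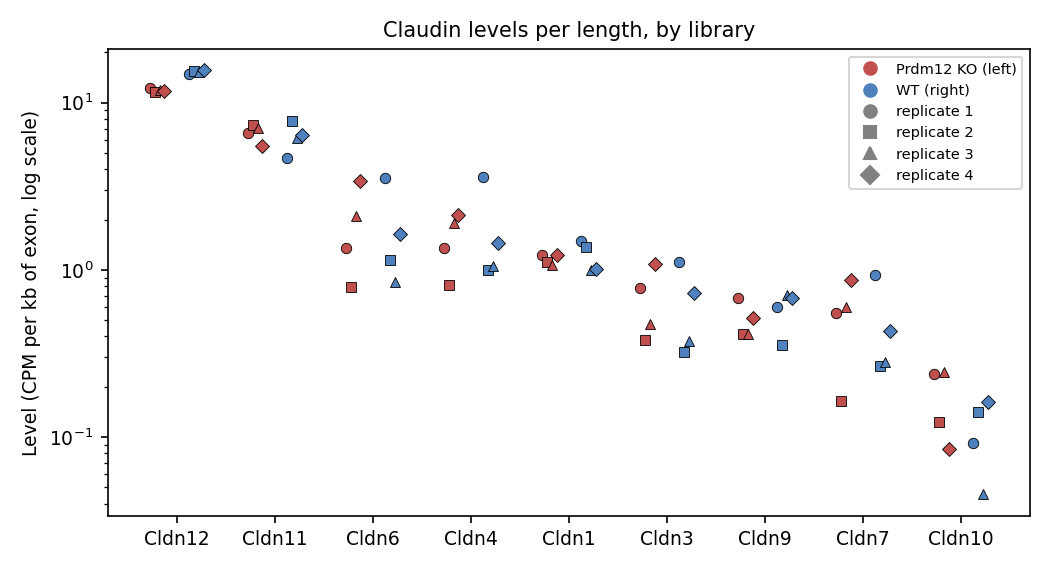
Level of each claudin in CPM per kb of exon (vertical axis, log scale), with 4 Prdm12 KO libraries at the left and 4 WT libraries at the right of each gene and symbols for replicates. Cldn12 and Cldn11 lie above all others in every library, and Cldn10 is lowest on average.

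Expressed against its paralogues, Cldn12 was on average a smaller part of the set in KO. The share and the ratios below contain the level of Cldn12 itself, so they restate the fall by which it was chosen. It held 48.8%, 51.0%, 46.4% and 44.0% of the summed per-length level in KO replicates 1 to 4, against 47.9%, 55.6%, 59.2% and 55.5% in WT replicates 1 to 4. The share of WT replicate 1, a library rich in epithelial markers, lay inside the range of the KO libraries, and the other 3 WT libraries lay above it. Cldn12 exceeded Cldn11 by 1.8-fold in KO and by 2.47-fold in WT, as geometric means over 4 libraries, and per coding kb by 3.45-fold in KO and 4.75-fold in WT. Over Cldn6 the excess was 7.12-fold in KO and 9.94-fold in WT, with ranges of 3.43 to 14.6 in KO and 4.17 to 18 in WT, and per coding kb it was 15.7-fold in KO and 21.9-fold in WT. The sum over the 9 claudins was 25.0 ± 1.67 in KO and 28.1 ± 2.13 in WT, in CPM per kb (SD, n = 4 each).

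Cldn11 (mm10 chr3:31149920-31164324, plus strand) is the claudin of myelin and of the barrier around the seminiferous tubules. It had 12.3, 13.7, 13.3 and 10.4 CPM in KO replicates 1 to 4, against 8.79, 14.6, 11.52 and 11.98 CPM in WT replicates 1 to 4. The genotypes overlapped widely, and WT replicate 1 and KO replicate 4 were the lowest of their groups. The log2 fold change was 0.095 (SE 0.14, edgeR adjusted p = 0.96), and −0.024 without WT replicate 1. Oligodendrocyte lineage markers, of which all 9 were found and none was at 0, summed to between 428 and 455 CPM in KO and between 352 and 453 CPM in WT. Most of that sum was Pdgfra, which is also on the mesenchyme list, and the 8 other markers summed to between 117 and 130 CPM in KO and between 93.7 and 131 CPM in WT. Most of this remainder was Sox10, which is also on a list of crest glia markers. Sox10 stood between 69.5 and 79.1 CPM in KO and between 50.4 and 75.1 CPM in WT. Of the 7 tested markers, 3 were higher and 4 lower in KO, and 0 passed the test. Mbp, which encodes myelin basic protein, had the smallest p of them (edgeR adjusted p = 0.332). It averaged 17.4 ± 0.637 CPM in KO and 21.2 ± 1.99 CPM in WT (SD, n = 4 each). Its genotypes did not overlap, where 2.45% of all genes tested had every KO library below every WT library. Sox10 and Pdgfra, also on the list, each had a log2 fold change of 0.16.

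Cldn1 (mm10 chr16:26356642-26371841, minus strand) had 5.96, 5.36, 5.17 and 5.95 CPM in KO replicates 1 to 4, against 7.20, 6.64, 4.86 and 4.90 CPM in WT replicates 1 to 4. The KO libraries lay inside the range of the WT libraries. The log2 fold change was −0.085 (SE 0.14, edgeR adjusted p = 0.963), and 0.044 without WT replicate 1. The spread of Cldn1 in KO, a coefficient of variation of 7.18%, was no wider than the 8.38% of counting error, while in WT it was 20.4% against 7.56%.

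Cldn3, Cldn4, Cldn6 and Cldn7 are claudins of epithelia. Cldn3 and Cldn4 bind the enterotoxin of Clostridium perfringens, Cldn6 is typical of embryonic epithelia, and Cldn7 associates with the adhesion molecule EpCAM. Their levels differed more between libraries of the same genotype than between genotypes, and the same libraries were high for all of them. Cldn6 (mm10 chr17:23679249-23682446, plus strand) had 2.35, 1.36, 3.60 and 5.86 CPM in KO replicates 1 to 4, against 6.09, 1.96, 1.45 and 2.82 CPM in WT replicates 1 to 4. KO replicate 4 and WT replicate 1 were the highest of their groups, and the genotypes overlapped over nearly the whole range. Cldn4 (mm10 chr5:134945119-134946934, minus strand) had 2.46, 1.48, 3.49 and 3.89 CPM in KO replicates 1 to 4, against 6.58, 1.81, 1.92 and 2.61 CPM in WT replicates 1 to 4. Cldn4 was again highest in KO replicate 4 and in WT replicate 1. Cldn7 (mm10 chr11:69964779-69967885, plus strand) ranged from 0.32 to 1.71 CPM in KO and from 0.517 to 1.81 CPM in WT. Cldn3 (mm10 chr5:134986214-134987472, plus strand) ranged from 0.48 to 1.36 CPM in KO and from 0.406 to 1.4 CPM in WT. For Cldn3 and Cldn7 too, KO replicate 4 and WT replicate 1 were the highest of their groups.

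This spread went beyond counting. The coefficient of variation of Cldn6 was 59.0% in KO and 67.8% in WT, where counting error gives 12.5% in KO and 12.3% in WT, and that of Cldn4 was 38.3% in KO and 70.1% in WT. The log2 fold changes were 0.016 for Cldn6 (SE 0.55), −0.26 for Cldn4 (SE 0.47), 0.057 for Cldn7 (SE 0.51) and −0.033 for Cldn3 (SE 0.42), with edgeR adjusted p between 0.97 and 0.999. With SE of this size a change as large as that of Cldn12 was not detectable. Their direction hung on single libraries. Without WT replicate 1 the log2 fold changes were 0.65 for Cldn6, 0.42 for Cldn4, 0.73 for Cldn7 and 0.49 for Cldn3. Without KO replicate 4 they were −0.40 for Cldn6, −0.45 for Cldn4, −0.23 for Cldn7 and −0.32 for Cldn3. Without both libraries, a choice made after the data were seen, they were 0.24, 0.24, 0.44 and 0.20 in that order of genes, with edgeR adjusted p between 0.93 and 0.977, and Cldn12 stayed at −0.36 (edgeR adjusted p = 0.00257).

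**Figure D3:**
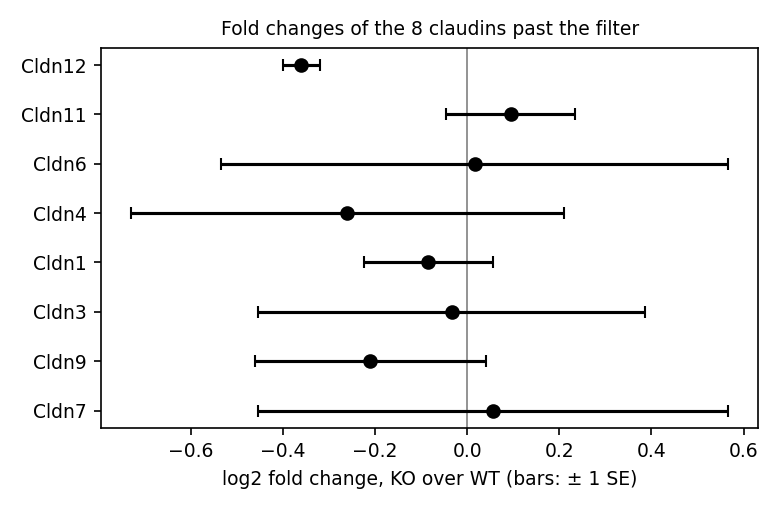
Log2 fold change, KO over WT (horizontal axis), of the 8 claudins that passed the filter, with bars of 1 SE to each side. Cldn12 lies at −0.36 with the narrowest bar (SE 0.04), and the bars of Cldn3, Cldn4, Cldn6 and Cldn7 are the widest.

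The 4 epithelial claudins followed the surface epithelium markers across libraries. The score is the mean log2 CPM of the 14 listed markers that passed the filter, and 20 relations were computed, for 10 claudins with this score and with that of 12 endothelium markers. Cldn6 had r = 0.97 and rho = 1.00 over the 8 libraries (two-sided exact permutation p = 2.48e-05 for r, which is the lowest value 8 libraries can give, and 4.96e-05 for rho; adjusted 0.000496 and 0.000992). Cldn4 had r = 0.98 and rho = 0.98 (exact permutation p = 4.96e-05 for r and 0.000397 for rho; adjusted 0.000496 and 0.00397). Cldn7 had r = 0.91 and rho = 0.95 (exact permutation p = 0.00218 for r and 0.00114 for rho; adjusted 0.0145 and 0.0076). For Cldn3 r was 0.86 and rho 0.81 (exact permutation p = 0.00605 for r and 0.0218 for rho; adjusted 0.0302 and 0.0872), so the rank relation did not pass the adjustment. Without WT replicate 1 and KO replicate 4, r over the other 6 libraries was 0.95 for Cldn6, 0.95 for Cldn4, 0.85 for Cldn7 and 0.64 for Cldn3.

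Cldn12 showed no such relation over the 8 pooled libraries, with r = −0.06 and rho = 0.00. The exact permutation p was 0.875 for r and 1.0 for rho (adjusted 0.915 and 1.0), and r was −0.13 without WT replicate 1 and KO replicate 4. The step of Cldn12 between genotypes was wider than its spread inside either. These pooled values could therefore hide a relation inside a genotype, which was not tested. Cldn11 ran against the epithelial score with r = −0.83 and rho = −0.64 (exact permutation p = 0.0105 for r and 0.0962 for rho; adjusted 0.042 and 0.321). That relation rests on WT replicate 1 and KO replicate 4, since r was −0.22 without them. Of the 9 claudins none passed with the endothelium score, where the smallest adjusted exact permutation p was 0.488 for r and 0.493 for rho. Cldn5 itself had r = 0.75 and rho = 0.88 with that score (exact permutation p = 0.0272 for r and 0.00724 for rho; adjusted 0.0907 and 0.0362), and r = 0.47 without KO replicate 4 and WT replicate 2.

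**Figure D4:**
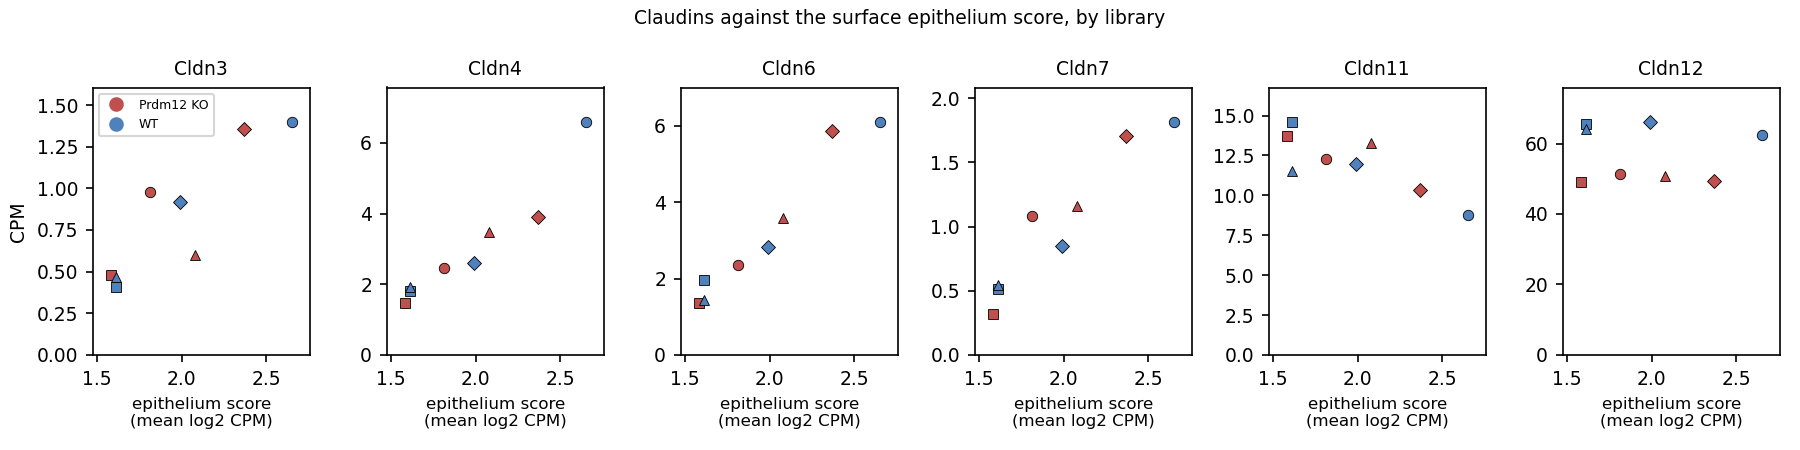
Level in CPM of 6 claudins (vertical axes, from 0) against the surface epithelium score, the mean log2 CPM of 14 markers (horizontal axes), with 1 point per Prdm12 KO or WT library and the same replicate symbols as in the other plots. Cldn3, Cldn4, Cldn6 and Cldn7 are higher where the score is higher, whereas Cldn12 separates by genotype at every score.

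Because these 4 claudins followed the score and Cldn12 showed no relation over the pooled libraries, their promoters are shown beside that of Cldn12. Each runs from 250 bases before to 50 after a RefSeq transcript start, 5′ to 3′. Where RefSeq has several starts, the one nearest the annotated gene start was taken. Capitals mark CAGGTG on either strand, the E-box that the repressors Snail and Zeb bind in promoters of epithelial genes.
Cldn3 (GRCm38.p6 chr5:134985964-134986263, plus strand): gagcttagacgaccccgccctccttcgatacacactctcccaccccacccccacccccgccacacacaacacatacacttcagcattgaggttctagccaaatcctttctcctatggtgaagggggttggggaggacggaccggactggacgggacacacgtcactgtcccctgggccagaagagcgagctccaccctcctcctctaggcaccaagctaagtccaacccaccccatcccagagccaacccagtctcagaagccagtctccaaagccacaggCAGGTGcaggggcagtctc
Cldn4 (GRCm38.p6 chr5:134946885-134947184, minus strand): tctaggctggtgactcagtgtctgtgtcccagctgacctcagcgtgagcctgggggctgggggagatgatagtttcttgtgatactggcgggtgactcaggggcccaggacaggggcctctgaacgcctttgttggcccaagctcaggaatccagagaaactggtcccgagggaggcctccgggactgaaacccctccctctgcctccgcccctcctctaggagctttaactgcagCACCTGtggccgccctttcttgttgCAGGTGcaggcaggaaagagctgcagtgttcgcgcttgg
Cldn6 (GRCm38.p6 chr17:23679115-23679414, plus strand): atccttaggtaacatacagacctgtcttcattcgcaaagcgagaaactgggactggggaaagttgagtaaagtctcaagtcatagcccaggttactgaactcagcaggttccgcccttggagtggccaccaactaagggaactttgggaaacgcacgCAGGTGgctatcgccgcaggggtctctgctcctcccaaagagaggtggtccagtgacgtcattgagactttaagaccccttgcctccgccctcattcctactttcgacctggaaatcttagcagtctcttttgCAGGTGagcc
Cldn7 (GRCm38.p6 chr11:69964529-69964828, plus strand): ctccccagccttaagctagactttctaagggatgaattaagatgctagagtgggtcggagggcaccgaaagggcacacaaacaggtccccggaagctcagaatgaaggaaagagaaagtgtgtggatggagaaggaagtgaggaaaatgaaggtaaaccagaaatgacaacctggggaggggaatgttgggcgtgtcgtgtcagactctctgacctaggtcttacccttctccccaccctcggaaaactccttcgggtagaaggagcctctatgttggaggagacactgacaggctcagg
Cldn12 (GRCm38.p6 chr5:5514927-5515226, minus strand): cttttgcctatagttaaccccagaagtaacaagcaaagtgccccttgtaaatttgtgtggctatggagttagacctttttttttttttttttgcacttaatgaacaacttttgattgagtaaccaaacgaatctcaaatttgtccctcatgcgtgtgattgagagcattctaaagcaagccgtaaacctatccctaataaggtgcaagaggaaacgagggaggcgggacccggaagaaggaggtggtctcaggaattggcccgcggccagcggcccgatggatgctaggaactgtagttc
CAGGTG or its reverse complement CACCTG was found 1 time in the Cldn3 window, 2 times in that of Cldn4 and 2 times in that of Cldn6. It occurred 0 times in the windows shown for Cldn7 and Cldn12. The windows of Cldn1, Cldn10 and Cldn11, which are not shown, also held 0 matches. The other RefSeq start of Cldn7 had a match, while none of the 3 windows of Cldn12 did. In the Cldn4 window the matches begin 14 bases before and 12 bases after the start. Of 32851 RefSeq windows of this length, 20.2% held a match. The grainyhead site AACCGGTT was in none of the 8 claudin genes' windows and in 0.146% of all windows. These are matches of letters, and binding was not measured here.

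Cldn9 and Cldn10 were at the edge of detection. Cldn9 (mm10 chr17:23682584-23684026, minus strand), needed for hearing in mice, lies 137 bp from Cldn6 on the other strand. Its counts per library were 15 to 27 in KO and 14 to 58 in WT, which is 0.60 to 0.975 CPM in KO and 0.517 to 1.02 CPM in WT. The log2 fold change was −0.21 (SE 0.25, edgeR adjusted p = 0.956), and the spread between libraries was near counting error, at 24.3% against 23.7% in KO and 27.2% against 20.2% in WT. Cldn9 did not follow the epithelial score as Cldn6 did (r = 0.18 and rho = −0.02, exact permutation p = 0.651 for r and 0.977 for rho; adjusted 0.868 and 1.0), and no test compared the coefficients. Cldn10 (mm10 chr14:118787908-118875489, plus strand), whose isoforms form cation or anion pores in the kidney, had 17, 8, 17 and 5 counts in KO replicates 1 to 4, against 16, 10, 3 and 12 counts in WT replicates 1 to 4. It did not pass the filter and was not tested, and a change in it was not detectable at this depth.

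Among other genes of the tight junction, none passed the test. Of 26 other claudins and claudin-domain genes found in the files, 11 were at 0 in every library and 7 passed the filter. Besides Cldn5, those with at least 1 CPM in either genotype were Cldnd1, Cldn34c1 and Cldn13. Cldn5 had 31.7 ± 1.69 CPM in KO and 31.3 ± 3.15 CPM in WT (SD, n = 4 each), a log2 fold change of 0.023 (SE 0.076, edgeR adjusted p = 0.985). The 12 endothelium markers, none at 0, summed to between 543 and 633 CPM in KO and between 548 and 607 CPM in WT. Cldnd1, a distant claudin-domain gene, averaged 76.4 ± 3.70 CPM in KO and 79.3 ± 3.48 CPM in WT (SD, n = 4 each; edgeR adjusted p = 0.935). Cldn34c1 had a log2 fold change of 0.18 (edgeR adjusted p = 0.875). The genes of like name, Cldn34c2, Cldn34c3 and Cldn34c4, had 0 counts in every library, and whether reads were shared among them was not tested.

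Of 16 tested genes for other tight junction membrane proteins, 0 rose and 0 fell, where 0.299% of all genes tested were called in either direction, so that no call is the usual outcome for a list of this size. The median log2 fold change was −0.016. The smallest p-values there belonged to F11r, which encodes the junctional adhesion molecule JAM-A (log2 fold change 0.19), Tmem47 (−0.11) and the polarity gene Crb2 (−0.19), with edgeR adjusted p between 0.813 and 0.855. Of 23 junction scaffold and polarity genes, 0 rose and 0 fell, and the median was −0.028. Patj, a multi-PDZ scaffold of the Crumbs complex, had 28.2 ± 4.84 CPM in KO and 23.4 ± 1.79 CPM in WT (SD, n = 4 each), a log2 fold change of 0.27 (edgeR adjusted p = 0.731). Magi3 and Amotl2 followed at −0.093 and −0.094. Of 12 tested epithelial transcription regulators, 0 rose and 0 fell, with a median of −0.0037 and Klf4, Klf5 and Elf3 at log2 fold changes of 0.33, 0.30 and −0.20. All genes tested had a median of −0.003. At an unadjusted p under 0.05 the edgeR fit held 487 higher and 533 lower genes among all genes tested, and Patj was the 1 gene of these 3 junction and regulator lists below it. DESeq2 and limma-voom called 0 of these genes and of the other claudins.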

How the data were processed

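RNA from the microdissected tissue, purified on kit columns, was made into libraries for Illumina sequencing, per the labels' protocols. Raw counts of reads per Ensembl gene were deposited by the authors, with 1 file for each library. Per the submitters' processing notes, STAR 2.3.0e and featureCounts 1.4.6-p1 were among the tools and mm10 was the build. For settings, annotation release and use of strand, the sources used here give nothing, so reads of overlapping genes cannot be told apart. The annotated overlaps of the claudins are Wbscr25 with Cldn3, at 2 counts over all libraries, and an rRNA gene with Cldn10, at 0 counts. The 5 summary rows held 0 counts and were left out. Symbols, coordinates and exon lengths came from GENCODE M21 (GRCm38, the assembly of mm10), in which 36602 of 38355 identifiers matched. Promoters came from RefSeq (GRCm38.p6), which held 8 of the 9 claudins.

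KO was compared with WT in edgeR 4.0.16 (R 4.3.3): filterByExpr, TMM factors (0.9914 to 1.012), a robust quasi-likelihood fit with genotype as the single term, and p-values adjusted by Benjamini-Hochberg over 16068 genes (threshold 0.05). Each log2 fold change is that of KO over WT, with an SE equal to its size over the square root of F. CPM uses TMM-scaled totals. Scores average log2 CPM (prior count 2) over a list. The script was tested on simulated counts. Permutation tests were two-sided and exact, adjusted over 20 relations. No pair of libraries of a genotype agreed within sampling noise (chi-square per degree of freedom 5.02 to 24.9), so none was treated as a repeat deposit. Intervals from counting cover counting error only.

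The members and lists were chosen with earlier results of these data known. Genes named were the 9 claudins, Prdm12, the 2 nearest tested genes on each side of Cldn12, the 5 genes most correlated with Cldn12, up to 3 genes per list with the smallest p, and other claudins of at least 1 CPM. Part of what this rule names is not reported here. Alternatives were other scalings, filters and tools (DESeq2 1.42.0, limma 3.58.1 voom), a replicate block, a muscle and mesenchyme covariate, WT replicate 1 thinned, other gene lengths, and fits without each library. Figures were drawn with matplotlib 3.10.9.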

Additional observations from a re-analysis of the deposited data

Results flagged for a closer look

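Cldn4 stood at 6.58 CPM in WT replicate 1, far from 1.81, 1.92 and 2.61 CPM in the other WT libraries. Its gap to the nearest library exceeded Dixon's 95% critical value for 4 samples. It was 1 of 20 groups of 4 values examined, and chance marks about 1 in 20. The summed surface epithelium markers of that library were 115 CPM, where the remaining WT libraries had 63.1 to 85.2 CPM. Cldn4 followed the surface epithelium score over the 8 libraries (r = 0.98), and r was 0.95 without WT replicate 1 and KO replicate 4. What set the single value of WT replicate 1 was not tested.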

How the results depend on the processing

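Each alternative reuses the values by which Cldn12 was chosen, so its results for Cldn12 are a description and no further test. Cldn12 stayed lower in KO in all 19 alternatives, at log2 fold changes between −0.38 and −0.34, and stayed called in 18 of them. The exception was the muscle and mesenchyme covariate (−0.34, edgeR adjusted p = 0.519), with which 0 of the claudins were called, and 1 gene was called lower and 0 higher among all genes. Replicate numbers did not pair the libraries, since deviations of same-numbered libraries correlated at −0.11, 0.28, −0.19 and −0.01, and 0 of 4 KO libraries correlated best with its own number. With the replicate block Cldn12 was at −0.36 (edgeR adjusted p = 0.0344), with 14 genes called lower and 2 higher over all genes. Against 39 lower and 9 higher genes with all libraries, DESeq2 called 81 lower and 22 higher, and limma-voom 103 and 23. Leaving out 1 library gave 12 to 112 lower and 3 to 21 higher genes, the most without WT replicate 1, and leaving out both WT replicate 1 and KO replicate 4, chosen after seeing the data, gave 91 and 21. For the 7 other claudins tested, 131 fold changes were fitted over these alternatives, of which 0 were called. All moved by less than the spread between libraries, but leaving out 1 library can hardly exceed that limit, so no stability is read from it. Over the alternatives the log2 fold change ran from −0.49 to 0.65 for Cldn6 and from −0.23 to 0.73 for Cldn7. It ran from −0.16 to 0.066 for Cldn1 and from −0.024 to 0.22 for Cldn11. The mean share of Cldn12 in the summed level per length was 51.0% over 8 libraries, 49.9% to 52.0% without 1 library, and 64.6% with coding lengths. Coding lengths divide the same counts by 732 bp in place of 4228 bp for Cldn12. For Cldn11 they divide by 621 bp in place of 1870 bp. Which length fits the transcripts present was not tested. Depth limits Cldn3, Cldn7, Cldn9 and Cldn10, which had under 50 counts in most libraries.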

Other observations

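Cldn8, a claudin of kidney and other epithelia that did not pass the filter on low counts, had 14, 3, 8 and 25 counts in KO replicates 1 to 4 and 53, 8, 8 and 8 counts in WT replicates 1 to 4. KO replicate 4 and WT replicate 1 were again the highest of their groups, as for Cldn3, Cldn4, Cldn6 and Cldn7, at 1.09 CPM in KO replicate 4 and 0.787 CPM in WT replicate 1. Cldn13, which lies on chromosome 5 near Cldn4, did not follow that order. It had 1.73, 0.921, 1.99 and 0.70 CPM in KO replicates 1 to 4 and 1.28, 1.22, 1.49 and 1.8 CPM in WT replicates 1 to 4. KO replicate 4 was the lowest library for it. Summed red cell markers stood at 5350 CPM in KO replicate 3, the highest KO library for Cldn13, and at 2320 CPM in KO replicate 2 and 2470 CPM in KO replicate 4, the lowest KO libraries for it, and their part in the Cldn13 values was not tested.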
